A study of Anser anser with 16 samples.

Results

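The genes described here are 102 ion channel genes of the goose, taken by name from the 9810 named genes among the 19448 genes of the count table. They were chosen by symbol alone and comprise genes of voltage-gated sodium, calcium and potassium channels and their auxiliary subunits, of inward rectifier, leak and calcium-activated potassium channels, and of the HCN, CLCN and TRP (A, C, M and V) families. All 102 passed the filter on low counts in each comparison, and each was counted in all 16 libraries, with 371 to 73266 reads in all. All 9810 named genes also passed that filter over the 16 libraries, so passing it does not set channel genes apart. Genes without a name could not be members, although the shares of all genes given below include them. RNA was sequenced from the hypothalamus and the pituitary of 8 male geese (Anser anser, White Kołuda, strain W33) at day 108, raised semi-intensively and fattened on oats. The groups were hypothalamus at high and at low growth rate and pituitary at high and at low growth rate, with 4 birds in each. Birds 49, 50, 52 and 54 had a high and birds 33, 37, 38 and 40 a low growth rate. The titles give the same numbers for both tissues, and these were taken to name birds. No treatment or genotype other than the shared strain is in the labels. The sources used here do not say how birds were sorted by growth rate. The series asks how the hypothalamus and pituitary differ between slowly and quickly growing geese.

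Ion channels set the membrane voltage of neurons and of hormone-secreting cells. Sodium channels carry the fast upstroke of the action potential, calcium channels turn voltage into calcium entry and so into release of transmitter or hormone, and potassium channels repolarise the membrane and set its resting level. The hypothalamus is brain tissue, rich in neurons and glia, whereas the anterior pituitary is built mainly of endocrine cells that can also fire action potentials.

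Libraries held 11121872 to 18068056 counts in the hypothalamus at high and from 9186728 to 11346496 at low growth rate, and from 8543585 to 13464132 in the pituitary at high and from 11175363 to 14456667 at low growth rate. The tissue labels were checked against marker genes. Of the lists, 11 of 12 measured neuron markers were called higher in the hypothalamus, and 8 of 8 measured markers of pituitary endocrine cells were called higher in the pituitary. No measured marker was at 0 in any library, but only named genes could be measured. Pituitary libraries of birds 38, 40 and 50 stood apart. Their summed levels of 8 astrocyte markers were 200.5 to 267 CPM, against 94.5 to 129.5 CPM in the other 5, and those of 3 myelin markers 194 to 265 CPM, against 37.9 to 93.3 CPM. The same 3 were higher for 8 endothelium and mural cell markers, at 1672 to 1725 CPM against 438 to 1050.4 CPM, for 7 microglia and macrophage markers, at 120.3 to 186 CPM against 39.4 to 88.6 CPM, and for AGRP, an appetite gene of the hypothalamic arcuate nucleus, at 27.1 to 56.4 CPM against 0.766 to 3.03 CPM. They were not higher for the 12 neuron markers, at 883 to 937 CPM against 926 to 1131 CPM. AGRP had 2.28 to 30.3 CPM in the hypothalamus libraries, less than the 56.4 CPM in the pituitary of bird 40. Values are given in CPM (reads of a gene relative to the library's total, after TMM scaling), which is not per gene length, so levels are compared between samples and not between genes. In whole tissue, fewer cells of a type and less RNA per cell cannot be told apart.

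The 102 channel genes together took 0.546 to 0.597% of the counts in the hypothalamus libraries, against 0.256 to 0.304% in the pituitary libraries, with no overlap. A gene was called different between tissues when edgeR's quasi-likelihood test gave a Benjamini-Hochberg adjusted p under 0.05 and the fold was at least 2. In all, 58 of 102 channel genes (56.9%) were called, against 34.4% of the 14394 genes tested. Of these, 47 were higher in the hypothalamus, a direction called for 19.5% of all genes, and 11 were higher in the pituitary, called for 14.9%. With no overlap between the 8 hypothalamus and the 8 pituitary values there were 68 channel genes (66.7%), against 49.2% of all genes. By the adjusted p alone, at any fold, 89 channel genes (87.3%) differed, against 76.3% of all genes. The median log2 difference, hypothalamus minus pituitary, was 0.88 over the channel genes and -0.06 over all genes tested.

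**Figure D1:**
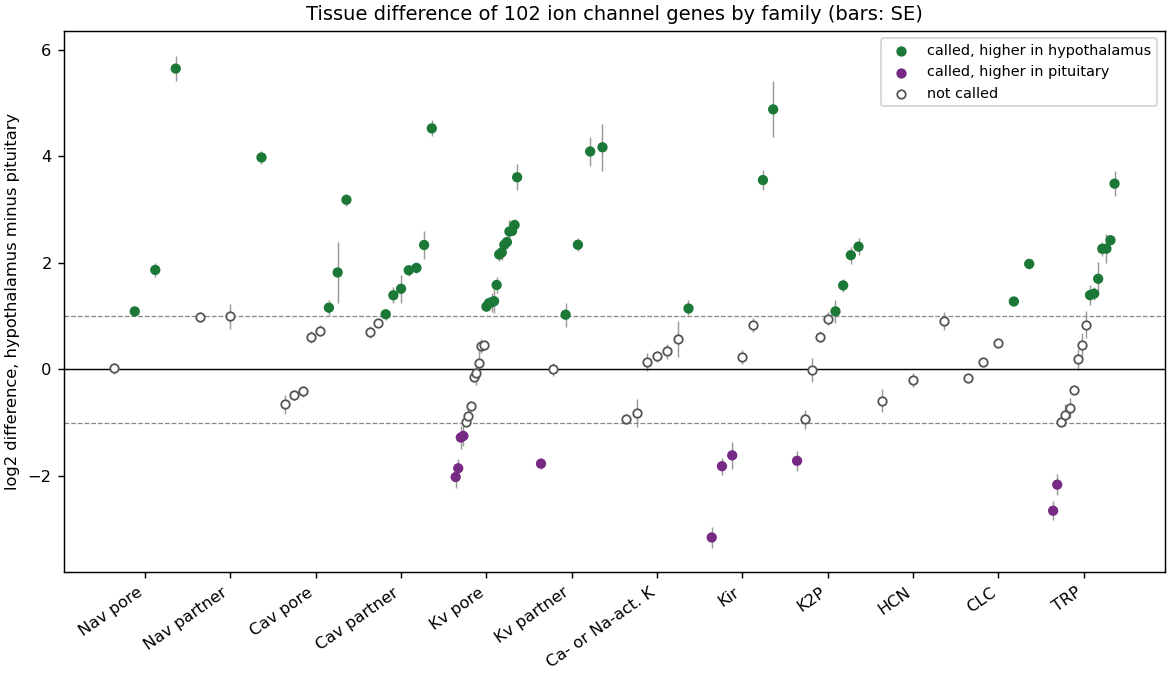
The vertical axis is the log2 difference, hypothalamus minus pituitary, of each of 102 channel genes, grouped by family along the horizontal axis, with bars for the standard error and dashed lines at a fold of 2. Filled green points are the 47 genes called higher in the hypothalamus and filled purple points the 11 called higher in the pituitary. The 9 calcium channel partner genes all lie above 0, and the potassium channel and TRP families reach both ways.

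Below, 3 CPM values per tissue stand for the lowest, the median and the highest of 8 birds, and ± after a log2 difference is its standard error. Adjusted p-values for the tissues come from edgeR's quasi-likelihood test over all 14394 genes. Family counts of calls stand beside the shares of all these genes, 19.5% higher in the hypothalamus and 14.9% higher in the pituitary.

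Among the sodium channel pores, SCN1A (ENSACDG00005000878), the channel known in mammals for its role in fast-firing inhibitory neurons, had the largest tissue difference of all 102 genes. It had 52.8, 76.5 and 92.4 CPM in the hypothalamus, against 0.775, 1.11 and 2.74 CPM in the pituitary. The groups were far apart, and the log2 difference was 5.64 ± 0.24 (edgeR adjusted p = 4.6e-12). Without the pituitary libraries of birds 38, 40 and 50 it was 6.26. SCN2A, a sodium channel of axons in the mammalian brain, had 155, 178 and 223 CPM in the hypothalamus, against 32.5, 46.4 and 64.6 CPM in the pituitary. SCN8A, the main sodium channel of nodes of Ranvier in mammals, had 65.8, 76.6 and 88.4 CPM, against 30.5, 36.7 and 42.2 CPM. Both were higher in every hypothalamus library, with log2 differences of 1.87 ± 0.14 for SCN2A and 1.09 ± 0.07 for SCN8A (edgeR adjusted p = 2.8e-09 and 6.6e-10). SCN3A, known in mammals from the developing brain and from endocrine cells, had 103, 127 and 160 CPM in the hypothalamus, against 94.2, 136 and 154 CPM in the pituitary. Its ranges overlapped almost wholly, and the log2 difference was 0.02 ± 0.11 (edgeR adjusted p = 0.89), with a sign that changed when bird 40 or bird 50 was left out.

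In the deposited table SCN1A, SCN2A and SCN3A lie on a single scaffold, with gaps of 176.1 kb and 44.8 kb between them. Whether genes other than the channel genes lie in these gaps was not examined. The tissue differences of SCN1A, SCN2A and SCN3A were 5.64, 1.87 and 0.02 on the log2 scale. The sources used here do not say how reads matching several of these similar genes were counted. Among channel genes that follow each other on a scaffold with no other channel gene between, 11 pairs lay within 500 kb. In 2 of these pairs the differences had opposite signs. CACNA1D and CACNA2D3, 133.6 kb apart, had log2 differences of -0.41 and 1.90, and KCNK17 and KCNK5, 73.0 kb apart, of -0.94 and 0.95. KCNJ9 and KCNJ10, 7.2 kb apart, were both higher in the hypothalamus.

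Of the sodium channel partners, the beta subunits that adjust gating and hold the pore at the membrane, SCN2B (ENSACDG00005013552) had 225, 242 and 330 CPM in the hypothalamus, against 12.3, 16 and 23.8 CPM in the pituitary. The difference of 3.98 ± 0.12 (edgeR adjusted p = 1.5e-13) was seen in 8 of 8 birds. SCN3B and SCN4B stood just under the fold of 2, at 0.978 ± 0.10 and 0.995 ± 0.23 on the log2 scale. SCN3B did not overlap between the tissues, at 403, 481 and 577 CPM in the hypothalamus, against 191, 242 and 298 CPM in the pituitary. SCN4B did overlap, although it lies only 9.9 kb from SCN2B.

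The calcium channel pores went both ways. Low-voltage-activated (T-type) channels open near the resting potential and support rhythmic firing, and the 3 T-type genes did not share a direction. CACNA1I (ENSACDG00005008871) had 39.4, 48.2 and 57.0 CPM in the hypothalamus, against 3.20, 4.73 and 9.01 CPM in the pituitary. Its groups did not overlap, with a log2 difference of 3.18 ± 0.12 (edgeR adjusted p = 9.3e-13). CACNA1G had 72.0, 88.6 and 92.8 CPM in the hypothalamus, against 92.8, 118 and 165 CPM in the pituitary. It was lower in the hypothalamus of 8 of 8 birds by an amount under the fold of 2, at -0.48 ± 0.10 (edgeR adjusted p = 0.00026). CACNA1H had 39.7, 46.1 and 52.7 CPM in the hypothalamus, against 37.8, 66.2 and 118 CPM in the pituitary, and overlapped, at -0.66 ± 0.18 (edgeR adjusted p = 0.0040).

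High-voltage-activated calcium channels drive release of transmitter and hormone. CACNA1E, the R-type pore, had 170, 193 and 237 CPM in the hypothalamus, against 63.5, 80.7 and 131 CPM in the pituitary, a called difference of 1.16 ± 0.14 without overlap (edgeR adjusted p = 1.1e-06). CACNA1B, the N-type pore of nerve terminals, had 34.0, 38.5 and 46.7 CPM, against 20.9, 23.8 and 42.2 CPM. CACNA1C, an L-type pore, had 45.8, 52.1 and 62.9 CPM, against 21.8, 32.3 and 38.2 CPM. Both lay under the fold of 2, at 0.61 ± 0.12 and 0.73 ± 0.10, and only CACNA1B overlapped between the tissues. CACNA1D, the other L-type pore of neurons and endocrine cells, had 29.0, 32.2 and 42.0 CPM in the hypothalamus, against 35.7, 46.2 and 50.9 CPM in the pituitary. It was lower in the hypothalamus of 8 of 8 birds although the ranges overlapped, at -0.41 ± 0.10 (edgeR adjusted p = 0.00096).

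CACNA1S (ENSACDG00005002856), the voltage sensor of skeletal muscle, was the least even of all channel genes. It had 10.6, 13.2 and 16.3 CPM in the hypothalamus, against 0.766, 1.45 and 24.2 CPM in the pituitary. The pituitary of bird 50, at 24.2 CPM, exceeded every hypothalamus value, and the other 7 pituitary values were at most 4.80 CPM. With all libraries the log2 difference was 1.82 ± 0.57 (edgeR adjusted p = 0.0088), and without bird 50 it was 3.06. The summed level of 3 measured skeletal muscle markers in the pituitary was also highest in bird 50, at 1110 CPM, next highest in bird 38, at 411 CPM, and 37.1 to 206 CPM in the other 6, against 61.6 to 123 CPM in the hypothalamus. Its part in the value of bird 50 was not tested.

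All 9 calcium channel partner genes had positive differences, against 47.5% of all genes. Of the 9 partner genes, placed here by name alone, 7 were called higher in the hypothalamus, against 19.5% of all genes. CACNG2, CACNG3, CACNG4 and CACNG5 are among these calls, and whether they serve calcium channels here was not tested. CACNG2 (ENSACDG00005017791), stargazin, which carries AMPA receptors to synapses in mammals, had 38.3, 42.0 and 47.6 CPM in the hypothalamus, against 1.26, 1.72 and 2.95 CPM in the pituitary. There was no overlap, and the difference was 4.52 ± 0.15 (edgeR adjusted p = 3.0e-13). Its relatives CACNG3, CACNG4 and CACNG5 were called at 1.39 ± 0.15, 2.33 ± 0.26 and 1.51 ± 0.26. The alpha-2-delta subunits, which raise the number of channels at the membrane, differed from each other in size, at 0.70 ± 0.11 for CACNA2D1, 1.86 ± 0.10 for CACNA2D2 and 1.90 ± 0.09 for CACNA2D3. Of the cytoplasmic beta subunits, CACNB3 was called at 1.03 ± 0.10 and CACNB2 lay under the fold of 2 at 0.86 ± 0.07.

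Among the 25 voltage-gated potassium channel pores, 13 were called higher in the hypothalamus and 4 higher in the pituitary. Of all genes, 19.5% and 14.9% were called in these directions, so the pituitary count was near the share of all genes. KCNQ3, a pore of the M-current that damps repetitive firing, had 33.2, 39.4 and 45.4 CPM in the hypothalamus, against 1.20, 3.71 and 4.88 CPM in the pituitary. That is a difference of 3.60 ± 0.24 without overlap (edgeR adjusted p = 9.2e-10). KCNQ1 and KCNQ5 were lower in the hypothalamus without overlap but under the fold of 2, at -0.98 ± 0.07 and -0.69 ± 0.10. Genes of fast repolarisation were called higher in the hypothalamus, with KCNC1 at 1.24 ± 0.12, KCNC2 at 2.60 ± 0.07 and KCNC4 at 2.34 ± 0.12. Of the A-type pores, which delay firing, KCND2 was called at 2.71 ± 0.12, while KCND3 differed by 0.46 ± 0.06.

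The 4 pores called higher in the pituitary included 3 electrically silent subunits, which act only by joining and changing other pores. KCNS3 had 2.62, 3.68 and 4.93 CPM in the hypothalamus, against 8.04, 15.2 and 23.5 CPM in the pituitary. KCNV1 had 8.47, 13 and 14.5 CPM, against 29.3, 43.3 and 71.7 CPM, and KCNG3 had 8.04, 9.46 and 10.7 CPM, against 11.1, 23.4 and 32.4 CPM. None overlapped, and all 3 were lower in the hypothalamus of 8 of 8 birds, at -2.02 ± 0.21, -1.85 ± 0.18 and -1.25 ± 0.19 (edgeR adjusted p = 1.8e-07, 9.4e-08 and 1.6e-05). KCNH8, of the ether-a-go-go family, was the fourth, with 2.89, 4.76 and 5.65 CPM in the hypothalamus, against 6.69, 10.3 and 18.6 CPM in the pituitary, at -1.28 ± 0.21 (edgeR adjusted p = 3.3e-05). Another silent subunit went the other way, KCNF1, called higher in the hypothalamus at 2.16 ± 0.12. KCNG1, also silent, averaged 18.9 ± 1.29 and 18.3 ± 1.03 CPM (SD) in the hypothalamus at high and low growth rate. In the pituitary KCNG1 averaged 17.9 and 16.4 CPM at high and low growth rate. KCNB2, a delayed rectifier pore, was called higher in the hypothalamus at 1.26 ± 0.18.

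The partners of voltage-gated potassium channels held both directions. KCNAB1, a cytoplasmic beta subunit, had 66.2, 69.9 and 88.5 CPM in the hypothalamus, against 0.459, 3.26 and 9.91 CPM in the pituitary. KCNIP2, a calcium-binding partner of A-type pores, had 56.6, 76.4 and 93.1 CPM, against 1.26, 4.08 and 9.09 CPM. Both were far higher in every hypothalamus library, at 4.17 ± 0.45 and 4.09 ± 0.28 (edgeR adjusted p = 3.0e-07 and 1.3e-09). Without the pituitary libraries of birds 38, 40 and 50 KCNAB1 differed by 5.90. KCNIP1, of the same family as KCNIP2, was reversed, with 37, 46.4 and 53.7 CPM in the hypothalamus, against 118, 147 and 196 CPM in the pituitary. Its difference was -1.77 ± 0.11, lower in the hypothalamus of 8 of 8 birds (edgeR adjusted p = 2.6e-10), and KCNIP4 differed by 0.0010 ± 0.13.

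Inward rectifiers hold the resting potential, and here they gave the most opposed pair. KCNJ10 (ENSACDG00005015055), the potassium-buffering channel of astrocytes and oligodendrocytes in mammals, had 261, 332 and 458 CPM in the hypothalamus, against 2.25, 8.91 and 28.9 CPM in the pituitary. KCNJ16 (ENSACDG00005000345), which in mammals joins KCNJ10 in mixed channels, had 1.22, 1.78 and 2.54 CPM in the hypothalamus, against 12.3, 16 and 20.7 CPM in the pituitary. Neither overlapped, and the differences were 4.88 ± 0.53 for KCNJ10 and -3.15 ± 0.19 for KCNJ16 (edgeR adjusted p = 3.4e-07 and 3.0e-10). The summed astrocyte markers had 3481 to 8456 CPM in the hypothalamus, against 94.5 to 267 CPM in the pituitary, and their part in the KCNJ10 difference was not tested. Without the pituitary libraries of birds 38, 40 and 50, KCNJ10 differed by 6.47.

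The G-protein-gated rectifiers, which let transmitters quiet a cell, were split as well. KCNJ9 had 66.1, 79.9 and 88.4 CPM in the hypothalamus, against 2.69, 6.82 and 11.3 CPM in the pituitary, a difference of 3.55 ± 0.19 without overlap (edgeR adjusted p = 7.1e-11). KCNJ5 was called lower in the hypothalamus at -1.61 ± 0.25, although bird-to-bird ranges overlapped, and KCNJ6 differed by 0.23 ± 0.13. The pores of ATP-sensitive channels also diverged. KCNJ8 had 2.85, 4.25 and 6.50 CPM in the hypothalamus, against 11.5, 15.6 and 22.4 CPM in the pituitary, at -1.82 ± 0.16 (edgeR adjusted p = 3.4e-08), and KCNJ11 was higher in the hypothalamus at 0.83 ± 0.14, under the fold of 2.

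Leak potassium channels set the background conductance. Of 9 genes, 4 were called higher in the hypothalamus, KCNK15 at 2.30 ± 0.17, KCNK2 at 2.14 ± 0.16, KCNK1 at 1.57 ± 0.12 and KCNK13 at 1.09 ± 0.22. KCNK9, an acid-sensitive leak channel, had 1.67, 2.32 and 2.70 CPM in the hypothalamus, against 4.07, 7.78 and 9.57 CPM in the pituitary. It was lower in the hypothalamus of 8 of 8 birds, at -1.71 ± 0.19 (edgeR adjusted p = 4.6e-07). Among the 7 genes placed by name in the calcium- and sodium-activated potassium channel families, 1 was called, the sodium-activated KCNT1, at 1.16 ± 0.14. KCNMA1, the pore of the large-conductance calcium-activated channel, had 50.7, 55.3 and 65.7 CPM in the hypothalamus, against 83.8, 107 and 139 CPM in the pituitary. It did not overlap and lay just under the fold of 2, at -0.94 ± 0.09.

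The HCN genes, whose channels carry the pacemaker current, held no call. HCN2 had 62.2, 70.2 and 81.5 CPM in the hypothalamus, against 19.7, 36.2 and 62.2 CPM in the pituitary, at 0.91 ± 0.18 (edgeR adjusted p = 0.00019). HCN4 had 12.2, 15.6 and 20.7 CPM, against 13.3, 18.1 and 23.8 CPM, at -0.20 ± 0.13 (edgeR adjusted p = 0.16). HCN2 was thus higher in the hypothalamus of 8 of 8 birds, while HCN4 overlapped between the tissues. Of the 5 CLCN genes, chloride transporters of endosomes and lysosomes, CLCN4 and CLCN6 were called higher in the hypothalamus at 1.98 ± 0.10 and 1.27 ± 0.08. CLCN3, CLCN5 and CLCN7 differed by 0.49 ± 0.06, 0.13 ± 0.06 and -0.15 ± 0.07.

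TRP channels are cation channels gated by lipids, temperature, irritants or oxidants. Of 16 TRP genes, 7 were called higher in the hypothalamus, against 19.5% of all genes. Higher in the pituitary were 2 of 16, near the 14.9% of all genes. TRPA1, an irritant sensor, had 8.64, 11.3 and 16.9 CPM in the hypothalamus, against 0.478, 1.04 and 2.15 CPM in the pituitary. The difference was 3.48 ± 0.24 without overlap (edgeR adjusted p = 1.2e-09). TRPM2, gated by oxidative signals, was called higher at 2.42 ± 0.09, and the cold sensor TRPM8 at 2.26 ± 0.27. TRPM6 and TRPM7, the pair of channels fused to a kinase that carry magnesium, were opposed, at 2.26 ± 0.14 for TRPM6 and -0.99 ± 0.09 for TRPM7, which lay just under the fold of 2.

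The diacylglycerol-gated channels TRPC6 and TRPC7 were the 2 TRP genes called higher in the pituitary. TRPC6 (ENSACDG00005012099) had 6.85, 10.4 and 14.6 CPM in the hypothalamus, against 45.1, 67.5 and 99.1 CPM in the pituitary. TRPC7 (ENSACDG00005001122) had 5.39, 6.52 and 9.37 CPM, against 16.8, 31.9 and 50.9 CPM. Both were lower in the hypothalamus of 8 of 8 birds without overlap, at -2.65 ± 0.18 and -2.16 ± 0.20 (edgeR adjusted p = 1.3e-09 and 4.1e-08).

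**Figure D2:**
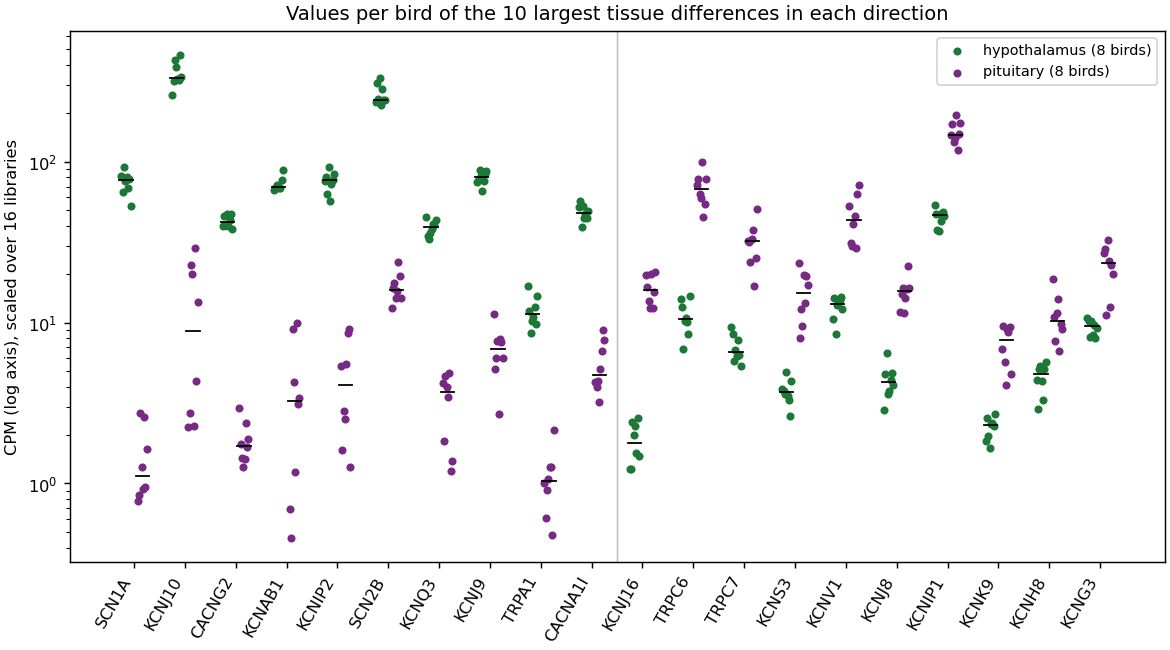
The vertical axis is CPM on a log scale, each point is a bird, the bars are medians, and the 20 channel genes have the 10 largest called tissue differences without overlap in each direction. Hypothalamus (green, left of each pair) lies above pituitary (purple) for the genes left of the grey line and below it for the genes to its right. KCNJ10 and KCNAB1 spread widest among the pituitary libraries.

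Genes that work beside these channels were also measured. Of all genes tested, 19.5% were called higher in the hypothalamus and 14.9% higher in the pituitary. Of 22 tested channel partners, 9 were called higher in the hypothalamus, led by the membrane scaffold ANK2 at 3.19 ± 0.11, LGI1 at 3.13 ± 0.17, the adhesion protein CNTN1 at 2.72 ± 0.08 and KCTD12, a partner of GABA-B receptors, at 2.45 ± 0.28. Higher in the pituitary were 2 partners, LRRC52 at -1.84 ± 0.20 and LRRC38 at -1.17 ± 0.19, both gamma subunits of the large-conductance potassium channel in mammals. Of 13 tested genes of intracellular calcium release and store entry, RYR2, a calcium release channel, was called higher in the hypothalamus at 1.29 ± 0.18. PKD2 and MCOLN2, cation channels of internal membranes, were called higher in the pituitary at -1.49 ± 0.09 and -1.19 ± 0.15. The calls of this list, and those of channel partners toward the pituitary, were near or under the shares of all genes. Of 10 tested pump and exchanger genes, 5 were called higher in the hypothalamus, led by the calcium pump ATP2B4 at 2.21 ± 0.12 and the sodium pump subunit ATP1B1 at 1.72 ± 0.14. In the pituitary 2 of the 10 were called higher, among them the calcium pump ATP2A3 at -1.09 ± 0.19.

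Channel genes were less even between birds in the pituitary than in the hypothalamus. Within growth groups the median coefficient of variation was 12.8% over the 102 genes in the hypothalamus and 22.8% in the pituitary, against 12.3% and 17.3% over all genes tested in those tissues. In the pituitary it was highest for CACNA1S at 129%, KCNAB1 at 98.9%, KCNJ10 at 95.4% and KCNN1 at 70.4%, and lowest for KCND3 at 6.58%. KCNJ10 had 28.9, 22.7 and 20.1 CPM in birds 50, 38 and 40, against 13.5 CPM in bird 54 and 2.25 to 4.31 CPM in the other 4. KCNAB1 had 9.91, 9.14 and 4.27 CPM in the same 3 birds, against 0.459 to 3.41 CPM in the other 5. Both were highest in the libraries where the astrocyte, myelin, vessel and microglia markers and AGRP were highest, and the part of those markers was not tested. KCNN1, a small-conductance calcium-activated potassium channel, had another order, with 11.3 to 12.8 CPM in birds 33, 37 and 54 and 2.06 to 6.30 CPM in the other 5.

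**Figure D3:**
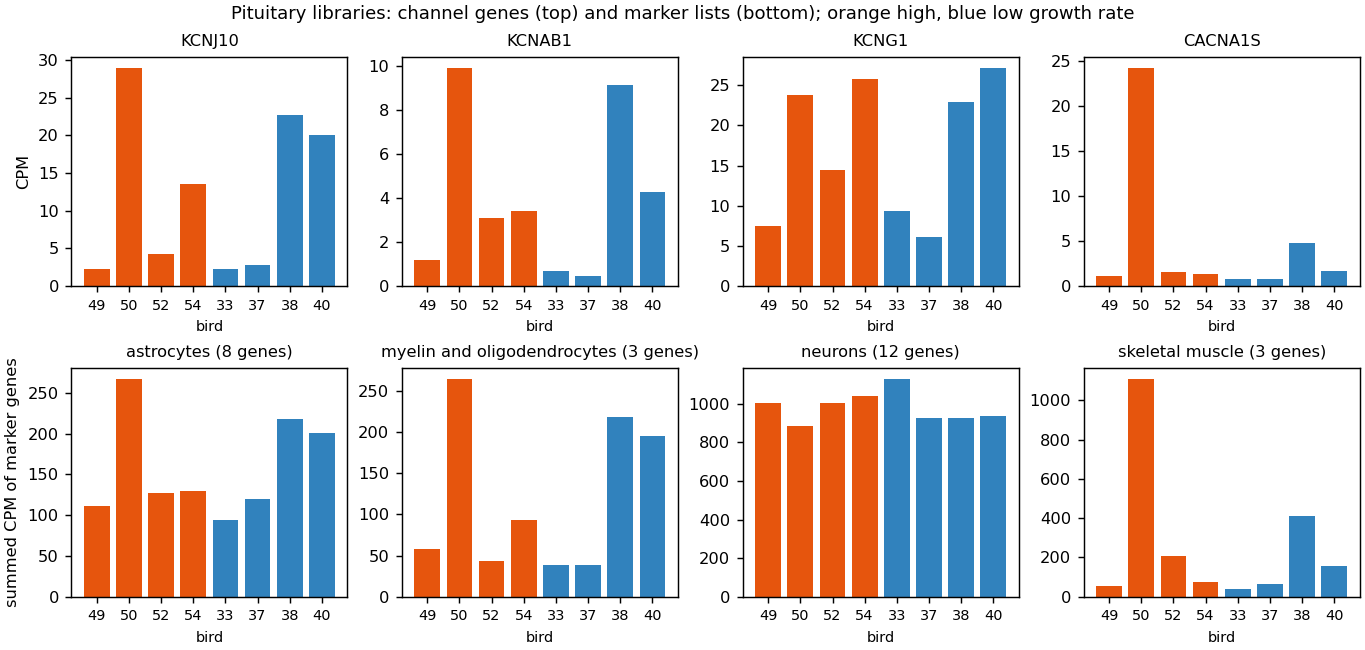
Bars give CPM of 4 channel genes (top row) and the summed CPM of 4 marker lists (bottom row) in each of 8 pituitary libraries, birds of high growth rate in orange on the left and of low growth rate in blue on the right. KCNJ10 and KCNAB1, like the astrocyte and myelin lists, are highest in birds 50, 38 and 40 (in KCNJ10 the fourth is bird 54), and CACNA1S is highest in bird 50, like the muscle list.

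No channel gene passed the adjusted threshold for growth rate. CPM of the growth comparisons were scaled within each tissue, and differences are log2 of high over low growth rate with 4 birds in each group. In the hypothalamus, edgeR called 0 of 102 channel genes, against 0 of 13695 genes tested (0%). At an unadjusted p under 0.05 there were 2 channel genes (1.96%), against 3.33% of all genes, 1 of them positive, against 1.88% of all genes, and 1 negative, against 1.45%. Without overlap between growth groups there were 0 channel genes, against 1.98% of all genes. DESeq2 and limma voom, run as alternatives, also called 0 channel genes.

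TRPM8, the cold sensor, had the smallest p. It had 4.77, 4.97, 4.14 and 6.08 CPM in birds 49, 50, 52 and 54 of high growth rate, against 8.53, 7.04, 5.35 and 6.44 CPM in birds 33, 37, 38 and 40 of low growth rate. The high group lay lower with overlap at bird 54, at -0.45 ± 0.19 (edgeR adjusted p = 1.00). TRPM1, a channel known from retinal bipolar cells and melanocytes in mammals, had 5.71, 7.84, 4.41 and 4.58 CPM at high growth rate, against 3.67, 3.06, 5.07 and 3.58 CPM at low growth rate. The high group lay higher with overlap at bird 38, at 0.56 ± 0.24 (edgeR adjusted p = 1.00). Among the next by p, CLCN6, TRPM2, SCN8A, KCNH6 and CACNA1B had negative differences, of -0.14 to -0.25, and overlapping groups. Their unadjusted p-values were 0.060 to 0.099.

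The signs in the hypothalamus were uneven although small. Of 102 differences, 73 were negative and 29 (28.4%) positive, against 48.7% positive over all genes. Leaving out a bird at a time moved the positive share between 26.5% and 37.3%. The median difference was -0.06, against -0.0050 over all genes, and the median size of a channel gene's standard error was 0.13. By family, negative differences were found in 4 of 4 sodium channel pores, 1 of 3 sodium channel partners, 7 of 8 calcium channel pores and 8 of 9 of their partners. They were found in 16 of 25 voltage-gated potassium pores, 3 of 6 of their partners, 6 of 7 calcium- or sodium-activated, 4 of 7 inward rectifier and 6 of 9 leak potassium channels. The HCN, CLCN and TRP families had 3 of 3, 5 of 5 and 10 of 16 negative. Neuron markers leaned the same way, with 10 of 12 negative, a median of -0.13 and a summed level of 5634 to 6340 CPM at high against 6305 to 6924 CPM at low growth rate. Microglia and macrophage markers had 7 of 7 positive differences, a median of 0.71 and a summed level of 109.6 to 321.5 CPM at high against 91.9 to 167 CPM at low growth rate. Bird 50 alone had 321.5 CPM. The next highest at high growth rate was bird 49 with 134 CPM, under the 167 CPM of bird 38 at low growth rate. Astrocyte markers had 5 of 8 positive. No gene of these lists was called, and the part of these cell types in the signs of the channel genes was not tested.

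In the pituitary, edgeR called 0 of 102 channel genes, against 0 of 13471 genes (0%), and DESeq2 and limma voom also called 0 channel genes. DESeq2 did not give a p-value to every channel gene there, and a gene without a p-value could not be called. At an unadjusted p under 0.05 there was 1 channel gene (0.980%), against 1.97% of all genes in either direction and 1.27% in its positive direction. Other scalings, no filter, DESeq2 and limma voom each gave 2, and over all alternatives the count was 1 to 8. The gene at that p in the fit given here was also the only channel gene without overlap (0.980%), against 1.45% of all genes. That gene was CACNA1I, the T-type pore. It had 4.82, 6.29, 8.43 and 7.41 CPM in birds 49, 50, 52 and 54 of high growth rate, against 3.98, 3.73, 4.05 and 3.02 CPM in birds 33, 37, 38 and 40 of low growth rate. Every high bird lay above every low bird, on counts of 61 to 113 reads against 33 to 57. The means were 6.74 ± 1.55 and 3.70 ± 0.47 CPM (SD), and the difference was 0.86 ± 0.24 (edgeR adjusted p = 1.00). Over the alternatives it stayed between 0.72 and 0.99, with an adjusted p of at least 0.42.

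No other calcium channel pore passed a threshold in the pituitary. In all, 7 of the 8 pores had positive differences, against 51.3% of all genes, and 6 without bird 50. Differences were also positive in 6 of 6 voltage-gated potassium channel partners and 3 of 3 sodium channel partners, but in 1 of 5 CLCN genes. CACNA1G had 109, 155, 133 and 113 CPM at high growth rate, against 92.3, 129, 86.7 and 91.2 CPM at low growth rate, at 0.35 ± 0.16 (edgeR adjusted p = 1.00). CACNA1B had 23.6, 26.8, 39.5 and 20.6 CPM at high growth rate, against 19.5, 23.7, 20.3 and 21.2 CPM at low growth rate, at 0.39 ± 0.20. In CACNA1G only bird 37 of the low group reached into the high group, and in CACNA1B the high mean rested mostly on bird 52. CACNA1E, CACNA1C and CACNA1D differed by 0.22 ± 0.23, 0.17 ± 0.17 and 0.07 ± 0.14, and CACNA1H by -0.10 ± 0.32.

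CACNA1S had 1.03, 22.8, 1.42 and 1.32 CPM in the pituitary of birds 49, 50, 52 and 54 of high growth rate, against 0.724, 0.717, 4.48 and 1.56 CPM in birds 33, 37, 38 and 40 of low growth rate. A single bird of each group stood above the rest, and the difference was 1.83 ± 1.08 (edgeR adjusted p = 1.00). Without bird 50 it was -0.58. In the authors' deposited table CACNA1S is the only channel gene called for growth rate in the pituitary, with an adjusted p of 0.00042 and a log2 ratio of -1.83, and 0 are called in the hypothalamus. The headers do not name the direction of that ratio. All 62 hypothalamus genes and all 51 pituitary genes called in the authors' deposited table carried the sign opposite to high minus low as computed here. At an unadjusted p under 0.05 the authors' values held 10 of 102 channel genes in the pituitary, against 3.32% of all genes. In the hypothalamus they held 2, against 3.77% of all genes.

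The remaining channel genes with the smallest p in the pituitary were KCNIP2, TRPM6, KCNJ8 and KCNMA1. KCNIP2 had 5.21, 8.06, 8.51 and 1.20 CPM at high growth rate, against 5.0, 1.51, 2.63 and 2.38 CPM at low growth rate, at 1.01 ± 0.55, and both the highest and the lowest values were of high birds. TRPM6, KCNJ8 and KCNMA1 differed by -0.52 ± 0.28, 0.34 ± 0.19 and -0.24 ± 0.14, all with overlapping groups. Of 102 differences, 57 (55.9%) were positive, against 51.3% of all genes, with a median of 0.02. Leaving out a bird at a time moved that share between 50% and 60.8%, and without birds 38, 40 and 50 it was 44.1%, with a median of -0.03.

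**Figure D4:**
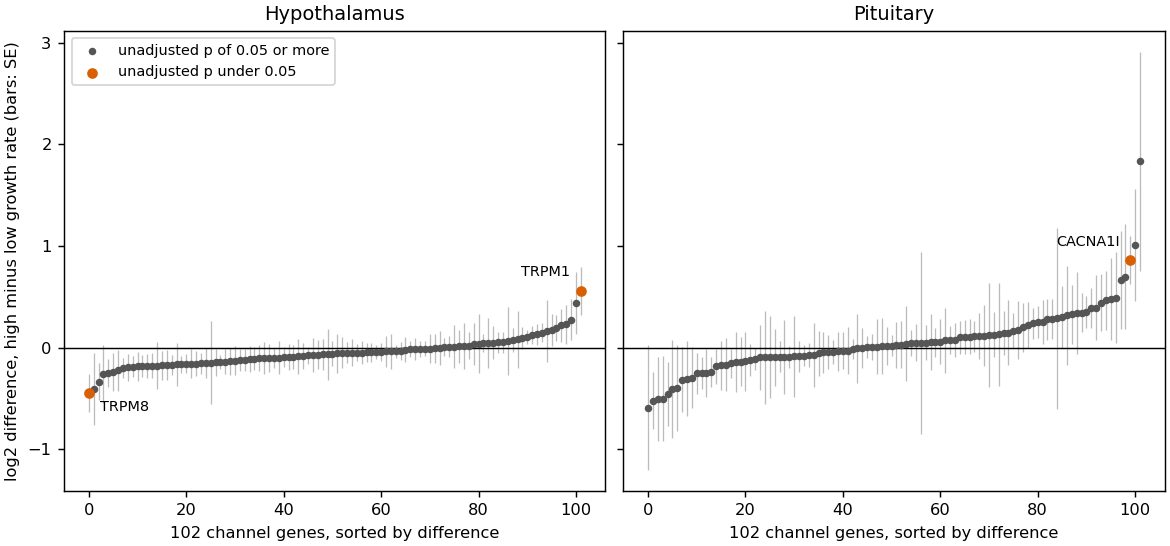
The vertical axes give the log2 difference, high minus low growth rate, of 102 channel genes in the hypothalamus (left) and the pituitary (right), sorted by size, with bars for the standard error. Orange marks the genes at an unadjusted p under 0.05, TRPM8 and TRPM1 in the hypothalamus and CACNA1I in the pituitary. More of the points lie below 0 in the hypothalamus (73 of 102) than in the pituitary (45 of 102), and the bars are longer in the pituitary.

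Whether a growth-rate difference itself differed between tissues was tested by the interaction of growth rate with tissue, which called 0 of 102 channel genes, against 0 of 14394 genes (0%). DESeq2 and limma voom also called 0 channel genes, although DESeq2 again did not give a p-value to every channel gene. At an unadjusted p under 0.05 there were 4 channel genes (3.92%), against 1.43% of all genes. All 4 differences were negative, that is, lower in the hypothalamus than in the pituitary. Negative ones at that p made up 0.695% of all genes, and positive ones, of which there were 0 among the channel genes, 0.736%. Of the 102 interaction differences 36 (35.3%) were positive, against 49.8% of all genes. The 4 genes at that p were CACNA1I at -0.97 ± 0.22 (edgeR adjusted p = 1.00), CACNA1B at -0.57 ± 0.23, TRPM2 at -0.39 ± 0.17 and KCNIP2 at -1.13 ± 0.53. The interaction fit took the same spread for both tissues. Over all genes the fitted coefficient of variation between birds was 0.161 in the hypothalamus, 0.253 in the pituitary and 0.215 when pooled. Unadjusted p-values may thus be too small where a difference comes from the pituitary.

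On the scale shared by all 16 libraries, CACNA1I averaged 46.4 ± 2.31 CPM in the hypothalamus at high and 50.4 ± 7.66 CPM at low growth rate, and 7.16 ± 1.66 CPM in the pituitary at high and 3.95 ± 0.52 CPM at low growth rate (SD, n = 4 each). CACNA1B averaged 36.8 ± 3.55 CPM in the hypothalamus at high and 41.9 ± 4.88 CPM at low growth rate, and 29.4 ± 8.97 CPM in the pituitary at high and 22.6 ± 1.94 CPM at low growth rate. TRPM2 averaged 216 ± 4.83 and 238 ± 14.3 CPM in the hypothalamus at high and low growth rate, and 46.0 ± 7.03 and 38.8 ± 6.35 CPM in the pituitary at high and low growth rate. In each of the 3, the mean at high growth rate was lower in the hypothalamus and higher in the pituitary. All 8 calcium channel pores had a negative interaction, with a median of -0.36, against -0.0010 over all genes. Other families leaned the same way, with 4 of 4 sodium channel pores, 7 of 9 calcium channel partners and 5 of 6 potassium channel partners negative. Of the inward rectifiers 1 of 7 was negative. The count of calcium channel pores rests partly on single birds and on scaling. Without bird 50 the difference of CACNA1S was positive, at 0.56 (-1.92 with all birds), and without bird 52 that of CACNA1D was positive. The smallest of them, CACNA1H at -0.0044 ± 0.36, changed sign in several fits, among them the one scaled by library totals alone. Over all fits run, 7 or 8 of 8 were negative. None of the 8 passed the adjusted threshold.

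**Figure D5:**
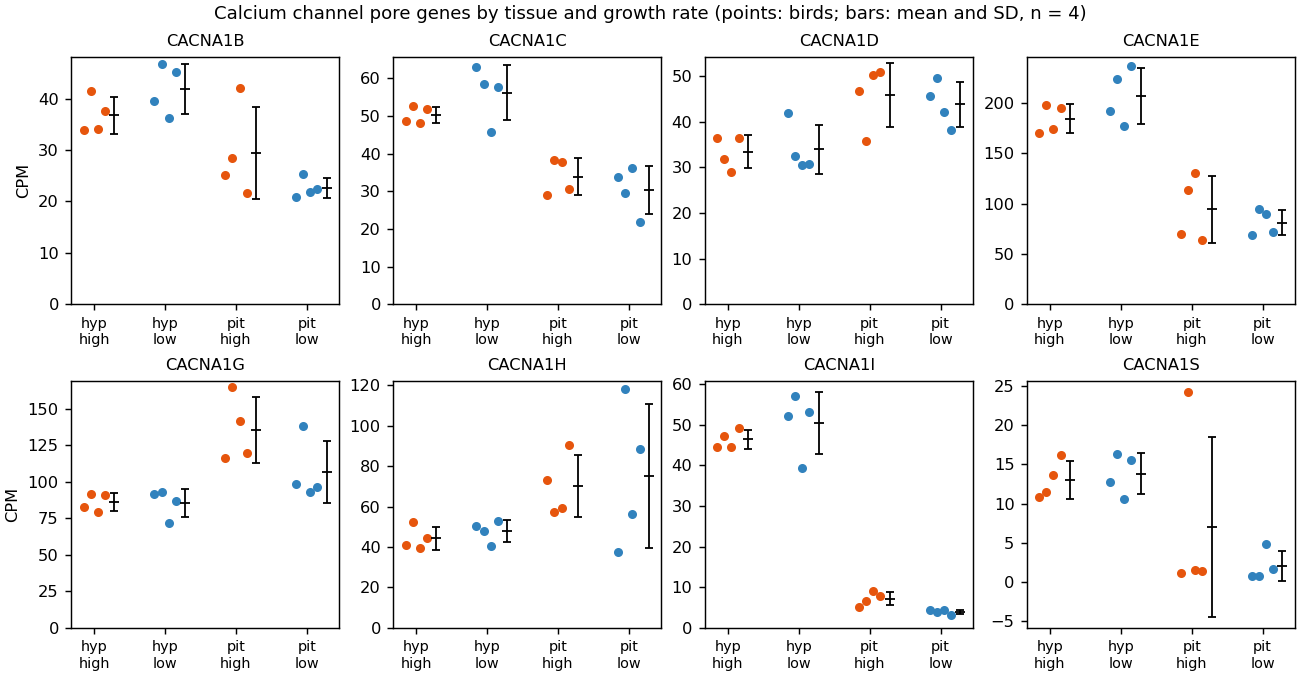
CPM (scaled over all 16 libraries, vertical axes from 0 except for CACNA1S, whose SD reaches below 0) of the 8 measured calcium channel pore genes in hypothalamus and pituitary at high (orange) and low (blue) growth rate. Points are birds and bars give the mean and SD of 4 birds. CACNA1I is the gene in which the high pituitary birds all lie above the low ones, and the high pituitary mean of CACNA1S rests on bird 50.

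No gene of the channel partner, calcium release or pump lists was called for growth rate in either tissue or for the interaction. In the hypothalamus 1 of 22 channel partners was at an unadjusted p under 0.05, against 3.33% of all genes. It was KCTD16, a partner of GABA-B receptors, with a difference of -0.39 ± 0.15. In the pituitary 1 of 10 pump and exchanger genes was at that p, against 1.97% of all genes.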

How the data were processed

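Counts of reads per gene, as deposited by the authors, were used for all tests. RNA with RIN values over 7 was made into TruSeq v2 libraries, per the labels' protocols. The submitters' processing notes name FastQC, STAR, RSEM, DESeq2, kallisto and Salmon without roles or versions. The only build they name is a pig assembly, so the assembly behind the gene table's scaffolds is unstated in the sources used here, and no coordinates are printed. The authors' deposited comparison tables, per the file headers, hold a log2 ratio, a p-value and an adjusted p-value per gene, and supplied the gene names. Deposited tables of other quantifications were not used here, except a gene table with ENSABRG identifiers, run as an alternative. Over 24 pairs of replicates the chi-square per degree of freedom was 8.33 to 78.0, far above sampling noise, so no replicate library was a copy of another. All 16 libraries were kept, and the check does not bear on their quality.

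Counts were filtered with filterByExpr, scaled with TMM and tested by quasi-likelihood F tests in edgeR 4.0.16 (R 4.3.3; threshold 0.05 after Benjamini-Hochberg adjustment over all genes tested). The tissue and interaction fits used 16 libraries with 4 group means, and growth rate was fitted on the 8 libraries of each tissue. Tissue calls also needed a fold of 2. Standard errors came from the F statistic. Alternatives were other scalings, no filter, DESeq2 1.42.0, limma voom (limma 3.58.1), the ENSABRG table, the bird as a block, all 16 libraries for growth rate, each bird left out, and the pituitary libraries of birds 38, 40 and 50 left out together because earlier results of these data set them apart. The fits were tested on simulated data. Recovery was counted by the adjusted p and the right sign, and false calls by the adjusted p alone. The fold of 2 needed for tissue calls was not applied there, so the tissue values do not describe those calls. Of 100 genes changed 2-fold, edgeR recovered 83% between tissues, 80% in the hypothalamus, 57% in the pituitary and 56% for the interaction. At a fold of 4 it recovered 96%, 99%, 94% and 81%. Unchanged genes gave 4, 20, 14 and 6 false calls in the same order. A true 2-fold difference in growth rate could thus go uncalled.

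The pairing of the tissues rests on the numbers in the titles, which were taken to name birds. Deviations of a bird's 2 libraries from their group means correlated over all genes at 0.184 to 0.389 in 8 of 8 birds. Over the channel genes alone the correlations were -0.068 in bird 50 to 0.266 in bird 40. No values for libraries of different birds are given beside them, so these correlations do not test the pairing. The members, the lists of partner and marker genes and the tests were chosen with earlier results of these data known. Named were the 10 largest called tissue differences per direction without overlap and with a mean of at least 1 CPM in the higher tissue, the 8 smallest p-values for growth rate per tissue and 6 for the interaction, all SCN, CACNA1 and HCN pores, and up to 4 called partner genes per list and direction. Other genes shown were chosen by family after their values were seen. No goose sequences were used here. Some genes that this rule names are not reported here.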

Additional observations from a re-analysis of the deposited data

Results flagged for a closer look

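The 41 channel genes that were named for their differences, their small p-values or their family were screened in the 4 groups, and the other channel genes were not. In 7 of these 164 sets of 4 birds, a gene's CPM (scaled over all 16 libraries) in a single bird stood far from the other 3 by Dixon's criterion. Chance flags about 5% of such sets, and 7 of 164 was under that share. In the pituitary at high growth rate, CACNA1S had 24.22 CPM in bird 50, against 1.09 to 1.51 CPM in the other 3. In the same group bird 54 was apart for KCNK9, at 4.796 CPM against 8.73 to 9.33 CPM, and for TRPM8, at 3.282 CPM against 0.672 to 1.04 CPM. In the pituitary at low growth rate, CACNA1G had 138 CPM in bird 37, against 92.8 to 98.8 CPM, and TRPC7 had 23.75 CPM in bird 38, against 31.5 to 32.9 CPM. In the hypothalamus, KCNJ10 had 457.5 CPM in bird 52 of high growth rate, against 322 to 337 CPM, and CACNA1D had 41.97 CPM in bird 33 of low growth rate, against 30.6 to 32.5 CPM. The causes were not tested.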

How the results depend on the processing

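Over 16 alternatives, 41 to 54 channel genes were called higher in the hypothalamus (47 in the fit reported) and 11 to 14 higher in the pituitary (11). With the bird as a block, since the tissues were taken as paired by bird, 47 and 11 were called. The interaction with the block held 0 calls. No called channel gene changed sign under another scaling. With library totals alone the median of all genes between tissues was 0.13 in place of -0.06, and HCN2 passed the fold of 2 at 1.09. SCN3A reversed to -0.034 in the ENSABRG table, -0.013 without bird 40, -0.066 without bird 50 (-0.066 to 0.085 over single birds left out) and -0.148 without the pituitary libraries of birds 38, 40 and 50. CACNA1S in the pituitary reversed to -0.578 for growth rate without bird 50 (-0.578 to 2.74 over single birds left out). No alternative called a channel gene for growth rate or the interaction, although DESeq2 did not test every channel gene in the pituitary and interaction fits. Counts at an unadjusted p under 0.05 moved with single birds: 0 to 7 in the hypothalamus (2 in the fit reported), where the fit of all 16 libraries gave 1; 1 to 5 in the pituitary (1 in the fit reported); and 1 to 7 for the interaction (4 in the fit reported). The share of all genes at that p over single birds left out was 1.96 to 7.83%, 1.55 to 3.99% and 1.19 to 2.61% in these comparisons. In the pituitary, median-of-ratios scaling, library totals alone, no filter on low counts, DESeq2 and limma voom each gave 2 (1.96 to 1.98%, against 1.94 to 2.38% of all genes). The fit without birds 38, 40 and 50 gave 5 (4.90%, against 1.94%), and the fit of all 16 libraries gave 8 (7.84%, against 3.89%). The causes were not tested. The median standard error of a channel gene's growth-rate difference was 0.13 in the hypothalamus and 0.23 in the pituitary.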

Other observations

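In the hypothalamus, bird 49 of high growth rate had the highest value of all 8 birds for 0 of 102 channel genes, against 8.39% of all genes. Bird 33 of low growth rate had the highest value for 31 of 102 (30.4%), against 21.1% of all genes. In the pituitary, birds 37 and 33 of low growth rate were highest for 21 and 19 channel genes (20.6% and 18.6%), against 9.69% and 15.3% of all genes. These birds were singled out after their values were seen.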
